A study of Ovis aries with 6 samples.

Results

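Metallothionein genes were followed in sheep cells made to overexpress MEOX2, a homeobox transcription factor of the mesoderm. The rule took rows of the deposited gene table named MT1A or MT3, and any other row described as a metallothionein within a window of 150 kb around them on chromosome 14. It found 2 of 26425 rows, MT1A and MT3, and 0 further rows by description, since every row with an Ensembl identifier has an empty description. MT1A and MT3 were picked because they were lower with MEOX2 in these libraries, so their values in the comparison below are a description and carry no test. The same window holds 2 more rows with metallothionein symbols, MT2 and MT4, which were not picked for their values and are described beside them, also without a test.

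The 6 RNA sequencing libraries were made from stromal vascular cells of fat, a mixture that holds adipocyte precursors, and the labels call the cell type adipocyte. In 3 samples MEOX2 was overexpressed, and 3 samples, labelled NC, were the control group. The deposited columns of both groups carry the prefix pHBLV, so NC shares that label with the MEOX2 samples. The labels give no age, sex, animal or time for either group, and do not spell out NC or name the promoter that drove MEOX2. Nothing in them says that samples of a group came from separate animals or cultures, so p-values reflect the spread among these libraries alone, part or all of which may be technical.

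Metallothioneins are small proteins, rich in cysteine, that bind zinc, copper and cadmium and buffer the free metal in the cell. Their genes sit side by side and are classic targets of the zinc-sensing transcription factor MTF1, which binds metal response elements in their promoters, and they are also induced by glucocorticoids, inflammatory cytokines and oxidative stress. The MT1 and MT2 types are made in most tissues, fat included, whereas MT3 is best known from brain, where it was described as a growth inhibitory factor, and MT4 from stratified epithelium.

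Levels are given as FPKM, reads divided by the length of the gene model and by a library size. The whole reads behind each value could be recovered from the table. The library size behind the FPKM values was 0.967 to 1.019 times the read total of the library. The libraries held 11772772 to 12230863 reads, 16426 to 16623 genes had a value above 0, and the introduced gene checked the labels: MEOX2 was at 132.9 ± 23.0 FPKM (SD, n = 3) with overexpression, against 9.98 ± 0.910 FPKM (SD, n = 3) in NC. Of 13121 genes averaging 1 FPKM or more, 350 (2.67%) passed an adjusted p of 0.05 in limma, 198 higher (1.51%) and 152 lower (1.16%) with MEOX2. The groups parted on the first principal component, which held 34.0% of the variance, and the second (22.2%) set NC sample 3 off from all other libraries. Stromal markers were abundant, and their 10 rows summed to 28069 to 30818 FPKM with MEOX2 and 26369 to 28279 FPKM in NC. Limma called 0 of these 10, beside 2.67% of all genes tested. Limma voom on the recovered reads called 2 (COL1A2 higher and ENG lower), beside 4.18% of all genes tested. An unadjusted limma p under 0.05 was found for 5, beside 1762 of all 13121 genes tested. The mature adipocyte marker rows summed to between 120.2 and 347.5 FPKM, with leptin (LEP) at 0 reads in every library. That sum was far below the stromal sum, to which COL1A2 alone gave 6505 FPKM in NC. Row by row the lists overlapped. FABP4 was at 235.3 FPKM in NC, above the stromal markers PDGFRA (150.4 FPKM) and ENG (19.9 FPKM).

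MT1A (ENSOARG00000018341) was the most abundant metallothionein and was lower in every MEOX2 library than in any NC library. Its row lies on chromosome 14, 23505870 to 23518073, minus strand, in the coordinates of the deposited table, whose genome build is not named in the sources used here. MT1A stood at 552.5, 456.5 and 561.4 FPKM in NC samples 1 to 3. It stood at 277.3, 243.0 and 217.2 FPKM in MEOX2 samples 1 to 3. The lowest NC library, sample 2, was still well above the highest MEOX2 library, sample 1, so the groups did not overlap.

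The group means of MT1A were 245.9 ± 30.1 FPKM with MEOX2, against 523.5 ± 58.2 FPKM in NC (SD, n = 3 each), 2.13-fold lower with MEOX2. On the log2(FPKM + 1) scale the difference was -1.09, the 34th most negative of the 13121 genes tested. In order of level, MT1A was the 194th gene of that set in NC and the 398th with MEOX2. These values rested on 1179 to 1463 reads per NC library and 561 to 666 reads per MEOX2 library. Libraries of a group varied by 12.3% (MEOX2) and 11.1% (NC, both coefficients of variation), against 4.01% and 2.72% from read counting alone, so the spread between samples, not depth, set the precision.

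MT2 (ENSOARG00000018343, chromosome 14, 23525089 to 23525821, minus strand) is the closest metallothionein row to MT1A in position. Its level was 178.3, 206.9 and 179.4 FPKM in NC samples 1 to 3 and 152.1, 153.8 and 130.9 FPKM in MEOX2 samples 1 to 3. The groups did not overlap here either, but the gap was narrow. The means were 145.6 ± 12.8 FPKM with MEOX2, against 188.2 ± 16.2 FPKM in NC (SD, n = 3 each), 1.29-fold lower with MEOX2, a log2 difference of -0.37. NC sample 2 had the lowest MT1A level and the highest MT2 level of its group.

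MT3 (ENSOARG00000018362, chromosome 14, 23534185 to 23535422, minus strand) was barely expressed. Its level was 3.22, 3.55 and 3.91 FPKM in NC samples 1 to 3 and 1.70, 1.94 and 1.18 FPKM in MEOX2 samples 1 to 3. Those values stand for 8, 9 and 10 reads against 4, 5 and 3 reads. The groups did not overlap, yet the lowest library rested on 3 reads, the limit that a count of 0 also allows.

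The MT3 means were 1.61 ± 0.386 FPKM with MEOX2, against 3.56 ± 0.346 FPKM in NC (SD, n = 3 each), a log2 difference of -0.81 on the log2(FPKM + 1) scale, the 97th most negative. That scale understates a change at so low a level, and with a pseudocount of 0.1 FPKM the difference was -1.12. Summed over a group, 12 reads (exact 95% Poisson interval 6.20 to 21.0) faced 27 reads (17.8 to 39.3), and the intervals overlap. The fold from NC to MEOX2, scaled by the library size behind the FPKM values, was 2.22 for MT3 with an exact 95% counting interval of 1.09 to 4.81. For MT1A the same interval ran from 2.02 to 2.26, and for MT2 from 1.19 to 1.41. These intervals cover counting error only, not the spread between samples.

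MT4 (ENSOARG00000018377, chromosome 14, 23560430 to 23562844, minus strand) had 0 reads in every library. A count of 0 allows up to 3 reads, or 1.32 to 1.44 FPKM depending on the library, so no comparison of MT4 was possible at this depth. Epithelial and keratinocyte markers, the cells in which MT4 is known, summed to between 1.05 and 1.78 FPKM over their 8 rows, with EPCAM and KRT5 at 0 reads.

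**Figure D1:**
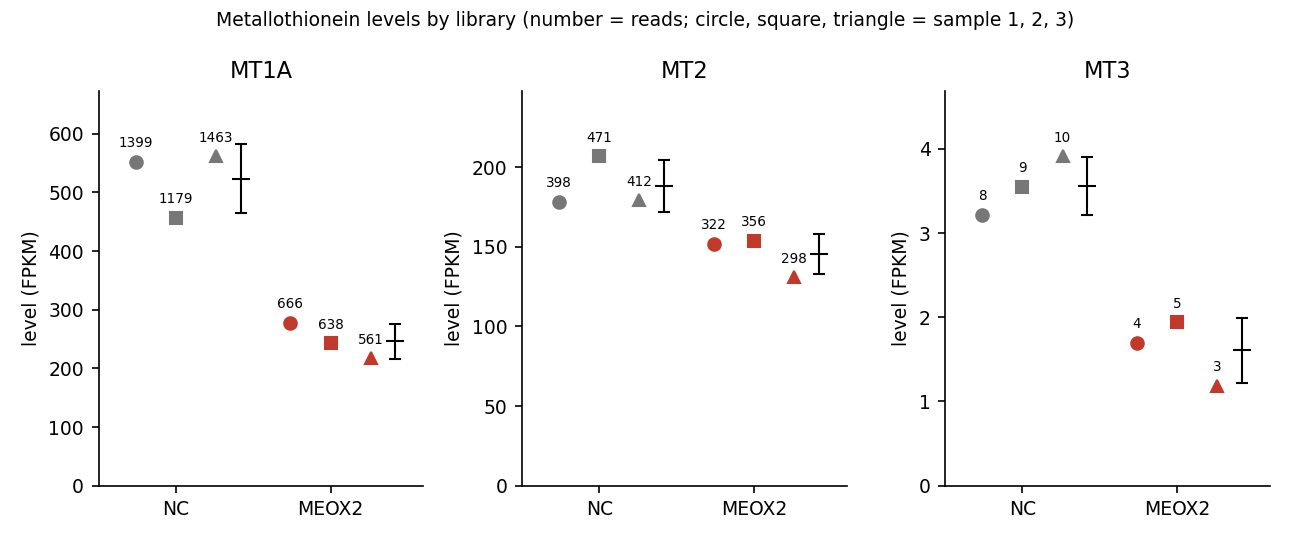
Level of MT1A, MT2 and MT3 in FPKM in each library, on axes that start at 0, with the number of reads printed at each point. Circles, squares and triangles are samples 1, 2 and 3, and the bars at the right of each group show the mean and SD (n = 3). All MEOX2 libraries lie below all NC libraries in each panel, with a wide gap for MT1A, a narrow one for MT2, and 3 to 10 reads per library for MT3.

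Of the 4 metallothionein rows, 3 passed the filter of a mean of 1 FPKM, both picked genes among them, and all 3 had MEOX2 below NC in every library. Over all genes tested, 9.33% showed that pattern, and since MT1A and MT3 were chosen for it the count of 3 supports nothing. The order MT1A, MT2, MT3, MT4 by FPKM, a level per length, was the same in all 6 libraries. The 3 rows did not share an order of libraries. MEOX2 sample 3 was the lowest for each of them, but the highest NC library was sample 3 for MT1A and MT3 and sample 2 for MT2.

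Because the rows differed in how much lower they were, the mix of metallothionein transcripts was not the same in the groups. The ratio of MT1A to MT2 in FPKM was 3.10, 2.21 and 3.13 in NC samples 1 to 3 and 1.82, 1.58 and 1.66 in MEOX2 samples 1 to 3. Its mean was 1.69 ± 0.124 with MEOX2 and 2.81 ± 0.524 in NC (SD, n = 3 each). NC sample 2 lay closer to MEOX2 sample 1 than to the other NC samples, and the groups did not overlap. Since MT1A was picked for its fall, this ratio is a description too.

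As a share of all metallothionein reads, MT1A made up 71.1% to 77.6% in NC and 63.9% to 67.1% in MEOX2 libraries. The exact 95% binomial intervals were 68.8% to 73.2% for the lowest NC library and 64.1% to 70.1% for the highest MEOX2 library, which overlap. Metallothionein reads as a whole numbered 147.6 ± 10.4 per 1000000 reads in NC and 79.2 ± 6.60 with MEOX2 (SD, n = 3 each), 1.86-fold fewer. The summed FPKM of the 4 rows was 349.3 to 431.1 with MEOX2 and 666.9 to 744.7 in NC.

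Leaving out single libraries moved the log2 difference of MT1A between -1.18 and -1.003, that of MT2 between -0.41 and -0.29, and that of MT3 between -0.91 and -0.69. Without NC sample 3, which stood apart, the differences were -1.03 for MT1A, -0.40 for MT2 and -0.76 for MT3. In a bulk sample, less RNA per cell and fewer cells that make the transcript cannot be told apart. Several mature adipocyte markers were lower along with the metallothioneins, but not all. Of 7 tested, limma called 4 lower (ADIPOQ, FABP4, PLIN1 and CIDEC) and 0 higher, beside 1.16% of all genes tested called lower. Of the 3 not called, LPL was level, at 39.7 ± 4.28 FPKM with MEOX2 against 39.5 ± 2.45 FPKM in NC (SD, n = 3 each, limma adjusted p = 0.993). The median log2 difference of the 7 was -0.91, against -0.00273 over all genes tested. The summed level of the 10 adipocyte marker rows was 120.2 to 145.7 FPKM with MEOX2 and 290.2 to 347.5 FPKM in NC. PLIN1 and CIDEC lost their calls without any single library (limma adjusted p up to 0.0872 and 0.0958). The part of fat cell content in the metallothionein values was not tested.

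Markers of other cell types were low apart from CD14 and S100B. Macrophage and leukocyte rows summed to 120.7 to 131.4 FPKM with MEOX2 and 113.1 to 121.0 FPKM in NC, nearly all of it CD14, and the pan-leukocyte gene PTPRC had at most 2 reads in a library. Of their 9 rows, 3 were tested and limma called 0, beside 2.67% of all genes tested. Limma voom on the recovered reads, which called 4.18% of all genes tested, called 1. An unadjusted limma p under 0.05 was found for 1, the macrophage receptor CD163, beside 1762 of all 13121 genes tested. CD163 was at 1.38 ± 0.0442 FPKM with MEOX2, against 2.32 ± 0.420 FPKM in NC (SD, n = 3 each). Neuron and glia rows, the cells in which MT3 is known, summed to 119.9 to 155.4 FPKM with MEOX2 and 140.0 to 152.9 FPKM in NC, nearly all of it S100B, while GFAP and SOX10 had at most 1 read in a library. Of these 8 rows, 2 were tested, S100B and SNAP25, and 0 were called by limma or limma voom, with 0 at an unadjusted p under 0.05. Endothelial rows summed to 1.90 to 3.40 FPKM with MEOX2 and 1.71 to 3.18 FPKM in NC.

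Metallothionein genes are known as a family of similar copies, and how the counting treated such copies is not given in the sources used here. In the RefSeq annotation of assembly ARS-UI_Ramb_v3.0, 6 protein-coding genes lie between SLC6A2 and MT3, of which 1 is named MT1B and 5 have no symbol, whereas the deposited table has 4 rows there, MT1A, MT2 and 2 rows without a symbol. The MT1A row spans 12204 bases for a gene model of only 211 bases, against spans of 733 bases for MT2 and 1238 bases for MT3. The 2 unnamed rows there have gene models of 1698 and 1701 bases, against 183 to 211 bases for the metallothionein rows. Whether any of the unnamed RefSeq genes is a metallothionein, and whether reads of related copies were counted in MT1A or MT2, was not tested. In the same RefSeq annotation the span of BBS2, a gene of the primary cilium, runs across MT3 and MT4. In the deposited table the BBS2 row starts beyond MT4, at 23605112, on the plus strand. No source used here gives the strand setting of the counting. Whether reads of a longer BBS2 transcript were counted in MT3 was not tested. BBS2 itself was at 13.96 ± 0.643 FPKM with MEOX2, against 14.3 ± 0.941 FPKM in NC (SD, n = 3 each).

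Of the rows around the metallothioneins, limma called 1, and it was higher. Within 500 kb on either side the table has 12 other rows, of which 9 were tested, 1 rose and 0 fell (2.67% of all genes tested were called), with a median log2 difference of 0.04. The nearest row before MT1A, which has no symbol (ENSOARG00000018268), had a log2 difference of 0.16 (95% interval -0.18 to 0.49). BBS2, the nearest row after MT4, had one of -0.03 (-0.23 to 0.17). Neither was called (limma adjusted p = 0.737 and 0.926). MMP2, a gelatinase of the extracellular matrix, was the most abundant row of the stretch and had a log2 difference of -0.05 (limma adjusted p = 0.844).

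SLC6A2, the noradrenaline transporter, was the row that rose. It stood at 2.96, 3.39 and 3.74 FPKM in MEOX2 samples 1 to 3 and 1.799, 1.33 and 1.41 FPKM in NC samples 1 to 3. All MEOX2 libraries were above all NC libraries, with means of 3.36 ± 0.392 and 1.51 ± 0.250 FPKM (SD, n = 3 each). The log2 difference was 0.80 (SE 0.14, limma adjusted p = 0.0242). The call was lost without any single library (limma adjusted p from 0.0524 to 0.111) and with a replicate block.

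**Figure D2:**
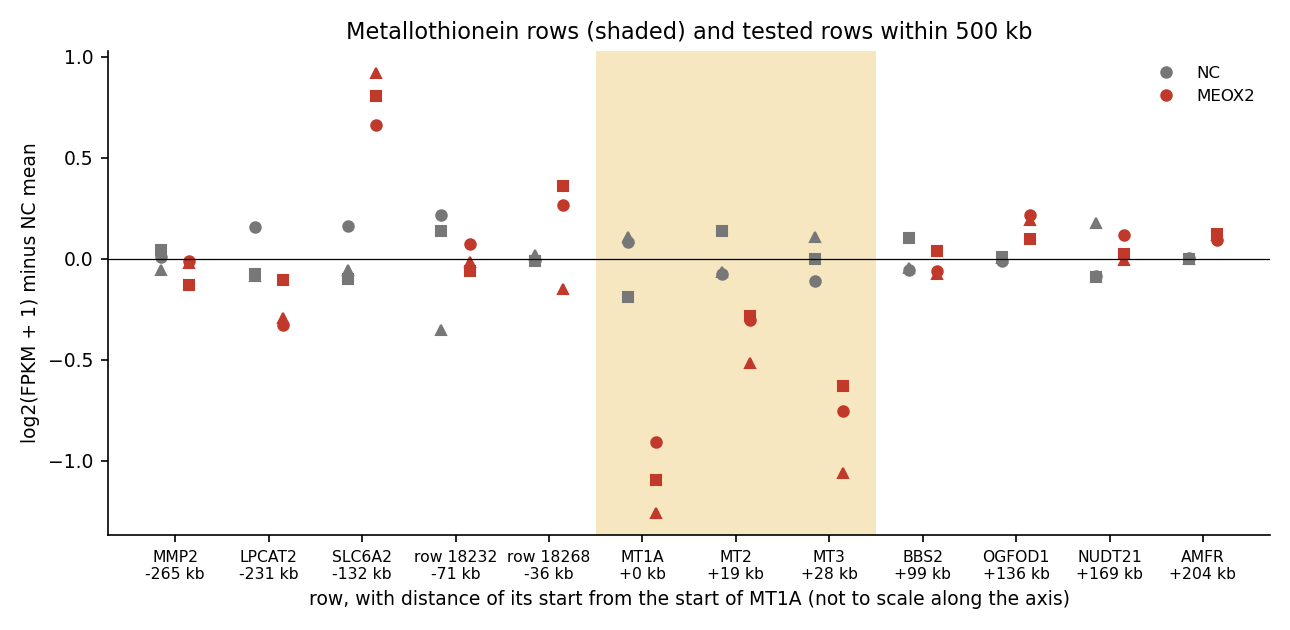
Each library's log2(FPKM + 1) minus the NC mean of that row, for the 3 expressed metallothionein rows (shaded) and the 9 tested rows within 500 kb, in order along chromosome 14 with the distance of each start from the start of MT1A. Circles, squares and triangles are samples 1, 2 and 3. MEOX2 libraries lie below 0 for the metallothioneins, above 0 for SLC6A2, and near the NC libraries for most other rows.

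The lists of genes that sense or carry metal and of stress genes held 99 tested rows with each gene counted once, of which limma called 4 higher and 4 lower, beside 2.67% of all genes tested called in either direction. MTF1, the zinc sensor that drives metallothionein genes, was at 4.11, 3.83 and 5.91 FPKM in MEOX2 samples 1 to 3 and 5.31, 4.50 and 6.002 FPKM in NC samples 1 to 3. The groups overlapped, and the log2 difference was -0.17 (95% interval -0.54 to 0.20, limma adjusted p = 0.743). The interval allows a modest change of the MTF1 transcript in either direction, and MTF1 activity was not measured. Of 8 rows for MTF1 and its reported targets, GCLC rose, 0 fell and 7 were not called, with a median log2 difference of -0.10. GCLC, the catalytic subunit of the first enzyme of glutathione synthesis, rose from 8.73 ± 0.576 to 13.4 ± 0.429 FPKM (SD, n = 3 each; log2 difference 0.57, limma adjusted p = 0.0141). It lost its call when MEOX2 sample 2, MEOX2 sample 3 or NC sample 1 was left out (highest limma adjusted p 0.0616). NDRG1, a stress-responsive gene, was at 619.1 ± 9.04 FPKM with MEOX2, against 740.4 ± 26.3 FPKM in NC and was not called by limma (adjusted p = 0.0993), while limma voom called it lower (adjusted p = 0.0156).

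Of the zinc exporters of the SLC30A family, which move zinc out of the cytosol, 6 of 10 rows were tested. Limma called 0 of them, as did limma voom, where 2.67% and 4.18% of all genes tested were called. An unadjusted limma p under 0.05 was found for 0 of them, beside 1762 of all 13121 genes tested. SLC30A1, the plasma membrane exporter and a standard MTF1 target, was at 17.2 ± 0.519 FPKM with MEOX2, against 15.8 ± 2.40 FPKM in NC (SD, n = 3 each), a log2 difference of 0.12 (95% interval -0.13 to 0.37). SLC30A9, SLC30A6 and SLC30A4 had log2 differences of 0.16, 0.08 and 0.09.

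Of the zinc importers of the SLC39A family, 9 of 13 rows were tested. Limma called 1 higher, SLC39A8, and 0 lower, beside 2.67% of all genes tested called in either direction. SLC39A8, an importer of zinc and manganese, went from 12.7 ± 1.003 to 19.5 ± 2.51 FPKM (SD, n = 3 each; log2 difference 0.58, limma adjusted p = 0.0312). Its libraries lay between 17.5 and 22.3 FPKM with MEOX2 and between 11.6 and 13.6 FPKM in NC, with no overlap. The call held without NC sample 3 and was lost without any of the other 5 libraries (limma adjusted p up to 0.133). SLC39A3, SLC39A1 and SLC39A6 had log2 differences of 0.28, 0.16 and 0.21 and were not called. The list's median log2 difference was 0.04.

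Of 20 rows for copper handling, 16 were tested. Limma and limma voom each called 0, where 2.67% and 4.18% of all genes were called. An unadjusted limma p under 0.05 was found for 3 of the 16, beside 1762 of all 13121 genes tested. STEAP3, a metalloreductase, had a log2 difference of 0.35, SLC31A2, a copper carrier of endosomes, of 0.25, ATOX1, the copper chaperone that serves the secretory pathway, of -0.26, and COA6, an assembly factor of cytochrome oxidase, of -0.35. Limma adjusted p values of these 4 ran from 0.146 to 0.514.

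Among 15 tested rows of iron handling, FTH1 rose, 0 fell and 14 were not called, beside 2.67% of all genes tested called in either direction. The median log2 difference of these rows was 0.09. Several of these rows carry the same name, FTL, so the rows are not 15 separate genes. Log2 differences of the FTL rows ran from -0.62 to 0.35, and the most abundant had -0.20 (limma adjusted p = 0.611). FTH1, the heavy chain of the iron store ferritin, was at 2357, 2508 and 2121 FPKM in MEOX2 samples 1 to 3 and 1680, 1625 and 1767 FPKM in NC samples 1 to 3. Every MEOX2 library was above every NC library, and the log2 difference was 0.46 (SE 0.08, limma adjusted p = 0.0268). The call was lost when MEOX2 sample 1 or 2 or NC sample 1 or 2 was left out (highest limma adjusted p 0.133). It was also lost without the filter, without the intensity trend and with a replicate block. Ferritin genes have near-identical processed copies, so their reads are uncertain. SLC40A1, the iron exporter ferroportin, was at 37.0 ± 0.576 FPKM with MEOX2, against 29.5 ± 1.14 FPKM in NC and was not called by limma (adjusted p = 0.0662), while limma voom called it higher (adjusted p = 0.0479).

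Oxidative stress, heat shock and cytokines are known to induce metallothioneins, and each of their lists had 1 row called by limma, beside 2.67% of all genes tested. Of 13 tested NRF2 targets, the oxidative stress genes, GCLC was the only member called, and the median log2 difference was -0.00744. PRDX1 and GCLM had log2 differences of -0.20 and 0.27 and were not called. Of 11 tested rows of the heat shock response, HSPB1, a small heat shock protein, fell from 186.0 ± 29.1 to 123.0 ± 5.98 FPKM (SD, n = 3 each; log2 difference -0.58, limma adjusted p = 0.0294), and 10 were not called. HSPB1 lost its call when any MEOX2 sample or NC sample 2 was left out (highest limma adjusted p 0.0985). Of 11 tested rows of the IL-6 and STAT3 response, the early response gene IER3 rose from 186.0 ± 5.70 to 255.7 ± 14.4 FPKM (SD, n = 3 each; log2 difference 0.46, limma adjusted p = 0.0144), with a call lost without MEOX2 sample 3 or NC sample 1 (up to 0.0764). SOCS3, the feedback inhibitor of that pathway, had a log2 difference of -0.25, LIF of -0.24 and BCL3 of -0.19, and these were not called.

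The glucocorticoid response list had 3 members that fell, 0 that rose and 12 not called among 15 tested, beside 1.16% of all genes called lower. Its median log2 difference was -0.19, against -0.00273 over all genes tested, and 11 of the 15 were negative. The 4 positive members included TSC22D3 (log2 difference 0.26) and CRISPLD2 (0.16). In both, all MEOX2 libraries were above all NC libraries, and neither was called (limma adjusted p = 0.335 and 0.337). PDK4, a brake on pyruvate dehydrogenase, stood at 3.48, 3.43 and 3.64 FPKM in MEOX2 samples 1 to 3 and 7.83, 6.38 and 7.83 FPKM in NC samples 1 to 3. The groups were far apart, with a log2 difference of -0.88 (SE 0.11, limma adjusted p = 0.00697). SGK1, a kinase induced by glucocorticoids, fell from 54.2 ± 1.29 to 34.6 ± 3.15 FPKM (SD, n = 3 each; log2 difference -0.64, limma adjusted p = 0.00770). PDK4 and SGK1 passed with each library left out in turn. FKBP5, a co-chaperone of the glucocorticoid receptor, fell from 155.9 ± 5.88 to 120.4 ± 4.28 FPKM (log2 difference -0.37, limma adjusted p = 0.0295), and lost its call without any single library (limma adjusted p up to 0.156).

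NR3C1, the glucocorticoid receptor itself, was at 48.2, 43.7 and 42.9 FPKM in MEOX2 samples 1 to 3 and 57.8, 51.8 and 68.0 FPKM in NC samples 1 to 3. The groups did not overlap, as for 18.9% of all genes tested, and the difference was not called by limma (log2 difference -0.38, adjusted p = 0.125), while limma voom did call it (adjusted p = 0.00934). These genes are not members of the metallothionein family, and whether they and the metallothioneins moved through a common route was not tested.

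**Figure D3:**
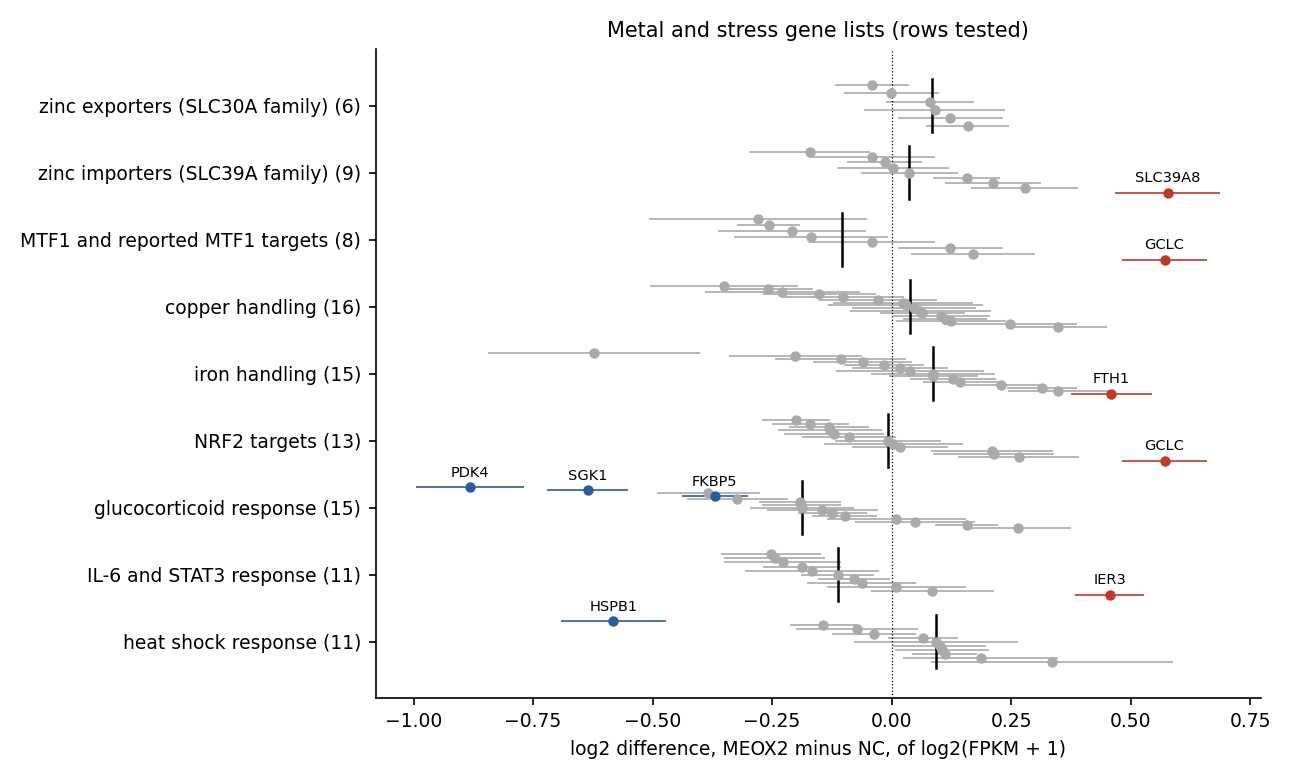
Log2 difference (MEOX2 minus NC on the log2(FPKM + 1) scale) of each tested row in 9 lists of metal and stress genes, with its SE as a horizontal bar, the number of rows tested in brackets and the list's median as a vertical black line. Red rows rose and blue rows fell by limma, and grey rows were not called. Called rows number 4 higher and 4 lower with each gene counted once, and GCLC appears in 2 lists.

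Likeness to the metallothioneins was measured over the 6 libraries as the root mean square distance between log2(FPKM + 1) values, each gene centred on its own mean. The 5 named genes nearest to MT1A were ADAMDEC1 (distance 0.109), OST (0.136), HIST1H2BD (0.141), AVPR1A (0.151) and PDK4 (0.156), beside 0.562 for the root mean square spread of MT1A about its mean. ADAMDEC1, a secreted metalloprotease, stood at 38.9, 37.3 and 34.1 FPKM in MEOX2 samples 1 to 3 and 69.9, 68.6 and 78.8 FPKM in NC samples 1 to 3. As for MT1A, MEOX2 sample 3 was its lowest library and NC sample 2 the lowest of its group. AVPR1A, a vasopressin receptor, had a log2 difference of -1.16, and HIST1H2BD, a histone row, rested on 2 to 11 reads per library.

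The 5 nearest to MT3 were TTC36 (distance 0.0961), CIDEC (0.105), LEPREL1 (0.117), ADAMDEC1 (0.120) and SEMA3G (0.121), beside 0.432 for the spread of MT3. CIDEC, a coat protein of the lipid droplet, stood at 1.24, 1.47 and 1.21 FPKM in MEOX2 samples 1 to 3 and 2.70, 2.93 and 2.96 FPKM in NC samples 1 to 3. ADAMDEC1 was on both lists. Among the metallothioneins, MT3 was the 10th nearest to MT1A (distance 0.201) and MT2 the 273rd (0.401), so MT2 followed MT1A less closely by this measure than 272 other named genes. Counted from MT3, MT1A was the 51st nearest (0.201) and MT2 the 120th (0.249), and MT3 rested on 3 to 10 reads per library. The nearest genes were selected by this distance, which the difference between the groups dominates, so their differences are a description.

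**Figure D4:**
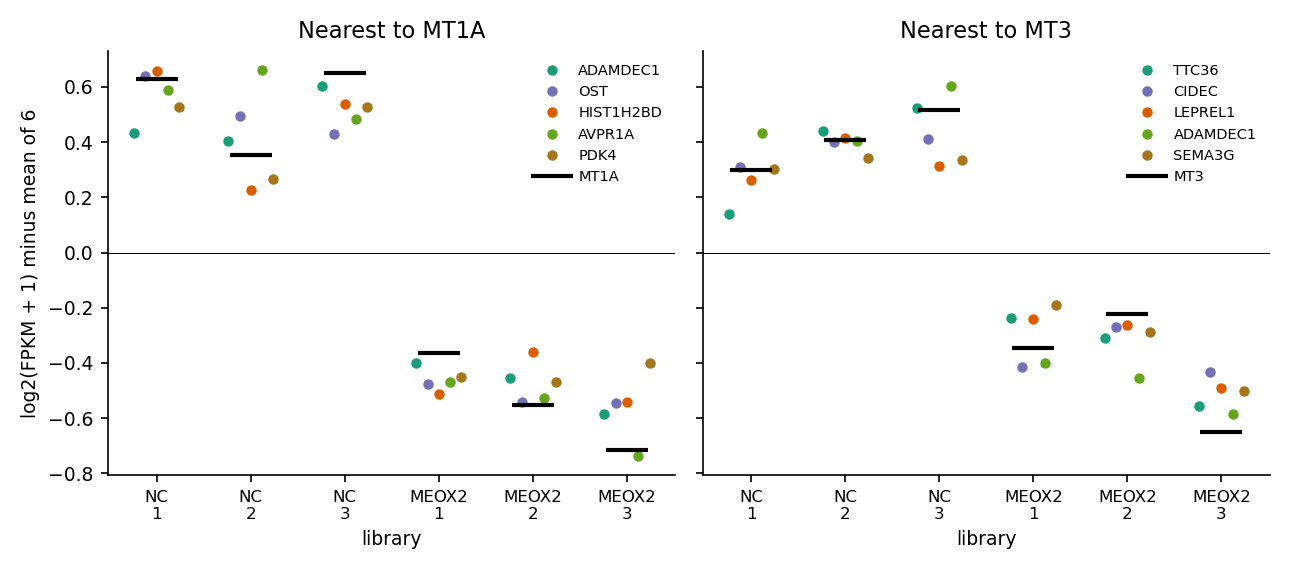
Log2(FPKM + 1) minus the gene's mean over the 6 libraries for MT1A (left) and MT3 (right, black bars) and for the 5 named genes nearest to each (coloured points). All genes shown lie above 0 in the 3 NC libraries and below 0 in the 3 MEOX2 libraries.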

How the data were processed

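The authors deposited 1 table of FPKM values for 6 libraries (sheep, 3 with MEOX2 overexpression, 3 NC). The submitters' processing notes list HISAT2 2.0.5, featureCounts 1.5.0-p3, DESeq2 1.20.0, CASAVA 1.8 and fastp without roles. Build, annotation and strandedness: not given in the sources used here. Multiplied by gene length, 100% of nonzero values were whole multiples of the library's smallest step (within 0.001 of a read), which gave back the reads. Short gene models such as those of the metallothioneins make FPKM sensitive to where the model ends.

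Log2(FPKM + 1) of 13121 genes averaging 1 FPKM or more was fitted with limma 3.58.1 in R 4.3.3 (intensity trend, no covariates), Benjamini-Hochberg adjusted over all of them. The fit was tested on simulated reads. Python 3.11.15 with scipy 1.17.1 and matplotlib 3.10.9 did the rest. Members and lists were chosen with earlier results of these data known. Of 189 list symbols in 15 lists, 163 matched by symbol, 1 by a RefSeq synonym, and 25 were not analysed here. Named genes are all metallothionein rows, MEOX2, MTF1, SLC30A1, called list members or up to 4 per list by smallest p, called or nearest neighbours, and the 5 nearest by distance. MMP2, LPL, TSC22D3, CRISPLD2, further FTL rows and the marker genes named as being at or near 0 reads were added after their values were seen. Chi-square per gene between libraries of a group was 3.70 to 12.1, and sampling noise alone gives about 1. A few list members are not reported here by name.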

Additional observations from a re-analysis of the deposited data

How the results depend on the processing

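The differences of MT1A, MT2 and MT3 were negative in every alternative run, and MT3 could not be fitted with a mean of at least 5 FPKM, which drops it. MT3 moved from -0.81 to -1.12 with a pseudocount of 0.1 and to -1.09 with limma voom on recovered reads, both of which shrink low values less. The 350 calls became 194 without a filter and 548 with limma voom, and 117 (without NC sample 1) to 276 (without NC sample 3) with a library left out. The 8 called metal and stress genes became 5 without a filter, 4 without the intensity trend, 5 with the replicate block, 12 with limma voom (5 higher, 7 lower) and 3 to 7 with a library left out. Calls of FTH1, HSPB1 and SLC39A8 were lost without a filter. Those of FTH1, HSPB1, SLC39A8 and FKBP5 were lost without the intensity trend, and those of FTH1, SLC39A8 and FKBP5 with the replicate block. The 1 called neighbour, SLC6A2, became 0 without a filter, with a mean of at least 5 FPKM, with the replicate block and in all fits with a library left out (0 to 0). With the replicate block 242 genes were called. Same-numbered samples did not deviate together (correlations -0.0747, 0.0204 and -0.00417). The labels do not say whether same-numbered samples were handled together. With a library left out, sign changes were limited to genes not called: SLC30A4 ran from -0.0283 (without MEOX2 sample 2) to 0.214, EGFL7 from -0.0245 (without NC sample 3) to 0.362 and BBS2 from -0.0675 to 0.0178 (without NC sample 2). MT3 at 3 to 10 reads per library and MT4 at 0 are limited by depth. Fits with fewer samples have less power.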
